A study of Mus musculus with 9 samples.

Results

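Keratins are the intermediate filament proteins of epithelial cells. A keratin filament is built from pairs of a type I (acidic) and a type II (basic) keratin, and the pairs in use differ between epithelia. Krt8 and Krt18 form the filaments of simple, one-layered epithelia such as the luminal layer of the prostate, Krt5 and Krt14 those of basal cells, and Krt4 with Krt13 those of moist stratified epithelia, while Krt4 also marks luminal cells of the proximal ducts of the mouse prostate. Hair and inner root sheath keratins are known chiefly from the hair follicle.

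The 53 keratin genes described here are all genes of the array with a single annotated symbol of the form Krt and a number, out of 22180 genes with a single symbol. They are measured by 54 probe sets (sets of short probes for a transcript), because Krt18 has a second one, and 28 genes are of type I and 25 of type II. By known biology 6 are simple epithelial keratins, 2 basal, 17 stratified and 26 of hair and inner root sheath, and Krt42 and Krt222 were not placed. Krt5 shares its probe set with Krt6a in the annotation and was not analysed here. The family was selected on measured values, since several keratins stood out when the recurrent lines were set against the parental line, so that contrast is given below as a description with no test.

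The samples are mouse prostate cancer cells in culture, measured with 9 Affymetrix Mouse Gene 2.0 ST arrays as log2 intensities. The AZD1208 group holds 3 MYCCaP lines from mice given AZD1208, an inhibitor of the PIM kinases, and the vehicle group 3 MYCCaP lines from mice given vehicle. Per the series' title the tumours were recurrent and grown in castrated mice, and all 6 lines, called recurrent lines below, were cultured without dihydrotestosterone (DHT), an androgen. The parental MYCCaP line, which comes from the prostate tumour of a mouse with a MYC transgene, was cultured with DHT and its 3 arrays are technical replicates of 1 sample. The recurrent lines thus differ from the parental line in androgen, in passage through a mouse and in treatment at once, which cannot be told apart. Labels call the 3 lines of a group biological replicates without saying whether each came from its own mouse, so the errors given here measure the spread between these lines.

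Array medians lay between 6.22 and 6.36, and AZD1208 line 3 had the narrowest interquartile range, 2.87 against 2.98 to 3.12 on the other arrays. That line was the highest of the 9 arrays for 21 of 53 keratins and for 23.6% of all genes. Among markers of prostate epithelium, Foxa1 averaged 11.84 in the recurrent lines and 11.84 in parental cells, and Hoxb13 averaged 8.67 in the recurrent lines and 8.86 in parental cells. Epcam lay below the filter on low values in both (4.88 and 4.99), as did Pbsn, an androgen-dependent secretory gene. In cultured cells as in any bulk sample, fewer cells that make a keratin and less of its RNA per cell cannot be told apart.

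RefSeq promoters (build GRCm38.p6, 250 bases before to 50 after the annotated start) were found for 35 of the 53 keratins. The 5 printed here are those of the keratins found among the 7 that were lower in every recurrent line (next paragraphs), together with Krt8, the neighbour of Krt78 in the cluster, which was not lower.  Capitals mark matches on either strand to any of 5 motifs. The TATA box was searched as TATAAA and the site of the AP-1 factors as TGANTCA. The GC box was searched as GGGCGG and the E-box bound by MYC with MAX as CACGTG. The half-site of the androgen receptor was searched as AGAACA. The windows lie at chr15:101940275-101940574 (Krt79), chr15:101954238-101954537 (Krt78), chr11:100105577-100105876 (Krt36), chr11:99493071-99493370 (Krt23) and chr15:102004293-102004592 (Krt8), all on the minus strand, and are written 5′ to 3′.
Krt79: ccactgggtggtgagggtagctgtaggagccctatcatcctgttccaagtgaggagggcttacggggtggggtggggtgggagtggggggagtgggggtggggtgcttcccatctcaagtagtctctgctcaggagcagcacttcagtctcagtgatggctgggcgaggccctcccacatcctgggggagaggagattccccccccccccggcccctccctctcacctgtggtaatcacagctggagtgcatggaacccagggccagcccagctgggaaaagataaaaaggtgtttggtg
Krt78: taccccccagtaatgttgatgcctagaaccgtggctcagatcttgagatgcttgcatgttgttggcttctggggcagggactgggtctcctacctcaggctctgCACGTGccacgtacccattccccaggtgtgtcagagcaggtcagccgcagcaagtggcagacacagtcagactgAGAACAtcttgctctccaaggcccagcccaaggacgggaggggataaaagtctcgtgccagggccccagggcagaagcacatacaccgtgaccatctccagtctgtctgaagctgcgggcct
Krt36: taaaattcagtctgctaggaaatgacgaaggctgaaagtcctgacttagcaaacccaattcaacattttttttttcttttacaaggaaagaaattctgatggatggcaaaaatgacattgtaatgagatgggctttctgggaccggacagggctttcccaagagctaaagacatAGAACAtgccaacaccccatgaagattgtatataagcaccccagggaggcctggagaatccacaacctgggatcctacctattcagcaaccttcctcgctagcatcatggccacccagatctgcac
Krt23: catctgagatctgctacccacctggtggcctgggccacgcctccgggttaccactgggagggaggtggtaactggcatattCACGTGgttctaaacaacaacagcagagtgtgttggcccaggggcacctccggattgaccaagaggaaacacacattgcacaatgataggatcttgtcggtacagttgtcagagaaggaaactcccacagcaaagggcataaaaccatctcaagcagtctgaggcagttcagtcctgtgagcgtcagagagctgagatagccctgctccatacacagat
Krt8: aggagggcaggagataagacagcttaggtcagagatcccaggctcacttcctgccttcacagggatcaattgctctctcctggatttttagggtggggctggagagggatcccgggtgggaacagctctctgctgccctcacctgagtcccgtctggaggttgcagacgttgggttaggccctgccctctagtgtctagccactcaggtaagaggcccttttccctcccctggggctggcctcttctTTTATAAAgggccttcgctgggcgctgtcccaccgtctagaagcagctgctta

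Krt78 holds 1 match to CACGTG and 1 to AGAACA, Krt36 holds 1 match to AGAACA, and Krt23 holds 1 match to CACGTG. Krt8 holds 2 matches to TATAAA that overlap each other, on opposite strands, and Krt79 holds 0 matches. Among 32851 RefSeq promoters of this length, 7.15% hold CACGTG, 19% AGAACA, 13.6% TATAAA, 7.81% TGANTCA and 35.7% GGGCGG. Of the 36 keratin promoters (Krt13 has a second one), 3 hold CACGTG, 8 AGAACA, 19 TATAAA, 2 TGANTCA and 2 GGGCGG. These matches are letters in a window and say nothing of binding.

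Against the parental line, Krt4 was 49.1-fold lower in the recurrent lines and Krt6a 28.3-fold lower, the largest and the second largest fall of all 22180 genes in mean log2 difference. Krt79 (3.44-fold), Krt19 (2.87-fold), Krt78 (2.59-fold), Krt36 (2.43-fold) and Krt23 (2.09-fold) were lower as well. These 7 keratins had a mean difference of at least 1 on the log2 scale (2-fold) and all 6 lines below all 3 parental arrays. They are 7 of 53 keratins (13.2%), and 0.252% of all genes (56 of 22180) met this, so that keratins made up 12.5% of the genes that did. Since the contrast chose the family, nothing is read from that share. Of 53 keratins 0 were higher by this measure, which 0.875% of all genes were.

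Krt4, a type II keratin of stratified mucosa, was at 6.85, 6.01 and 7.99 in AZD1208 lines 1, 2 and 3, at 6.34, 9.24 and 6.59 in vehicle lines 1, 2 and 3, and at 12.84, 12.77 and 12.76 on the 3 parental arrays. Every recurrent line lay far below the parental arrays, vehicle line 2 least so and AZD1208 line 2 most. Krt6a, a type II keratin of wounded and fast-dividing epithelium, was at 6.43, 5.07 and 7.39 in AZD1208 lines 1, 2 and 3, at 6.18, 8.48 and 7.58 in vehicle lines 1, 2 and 3, and at 11.73, 11.70 and 11.61 on the 3 parental arrays. The same pair of lines held its highest and lowest recurrent values, and the AZD1208 and vehicle lines overlapped for both genes. Krt4 averaged 7.17 ± 1.22 over the recurrent lines (SD, n = 6 lines), against 12.79 in parental cells with a technical SD of 0.043. Krt6a averaged 6.86 ± 1.21 over the recurrent lines (SD, n = 6 lines), against 11.68 in parental cells with a technical SD of 0.060. The recurrent lines differed among themselves by 3.23 for Krt4 and 3.41 for Krt6a between the highest and the lowest, far more than the technical arrays did.

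The next falls were smaller and nearly the same in every line. Krt79, a type II keratin of the upper hair follicle and its sebaceous duct, was at 6.58, 6.16 and 6.79 in AZD1208 lines 1, 2 and 3, at 6.56, 6.80 and 6.64 in vehicle lines 1, 2 and 3, and at 8.53, 8.25 and 8.32 on the 3 parental arrays. Krt78, a type II keratin of stratified epithelium, was at 6.56, 6.50 and 6.93 in AZD1208 lines 1, 2 and 3, at 6.81, 6.93 and 6.54 in vehicle lines 1, 2 and 3, and at 8.19, 8.09 and 7.96 on the 3 parental arrays. Krt19, a type I keratin of ducts and glands that lacks most of the tail domain, was at 6.59, 6.63 and 6.96 in AZD1208 lines 1, 2 and 3, at 6.63, 6.94 and 6.87 in vehicle lines 1, 2 and 3, and at 8.32, 8.26 and 8.29 on the 3 parental arrays. For these 3 genes the 6 recurrent lines formed a narrow band, well apart from the parental arrays, in which AZD1208 and vehicle lines overlapped. That band lay near the array medians (6.22 to 6.36). Dim genes understate differences, which limits what the size and evenness of these falls can show. Their SD over the 6 lines was 0.23, 0.20 and 0.17 on the log2 scale, and 44.1%, 55.1% and 67.7% of all genes had a larger one. The parental line had no further sample, so its own spread between cultures is not known.

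Krt36, a type I hair keratin, was at 7.91, 8.70 and 7.79 in AZD1208 lines 1, 2 and 3, at 9.43, 8.12 and 7.30 in vehicle lines 1, 2 and 3, and at 9.51, 9.49 and 9.47 on the 3 parental arrays. It entered the count by a small margin, because vehicle line 1 lay at 9.43 and the lowest parental array at 9.47. The other 5 lines lay between 7.30 and 8.70. Krt23, a type I keratin, was at 5.57, 5.28 and 5.24 in AZD1208 lines 1, 2 and 3, at 5.56, 4.85 and 5.59 in vehicle lines 1, 2 and 3, and at 6.63, 6.25 and 6.36 on the 3 parental arrays, and its mean over the 7 samples fell below the filter on low values. At the edge of the size used, Krt23 (-1.07 on the log2 scale) was the last inside. Outside were Krt15 (-0.98) and Krt80 (-0.93), each with lines on both sides of the parental arrays, and Krt14 (-0.72). Krt23 left the count without vehicle line 2 or without the first parental array, and Krt80 entered it without AZD1208 line 2.

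**Figure D1:**
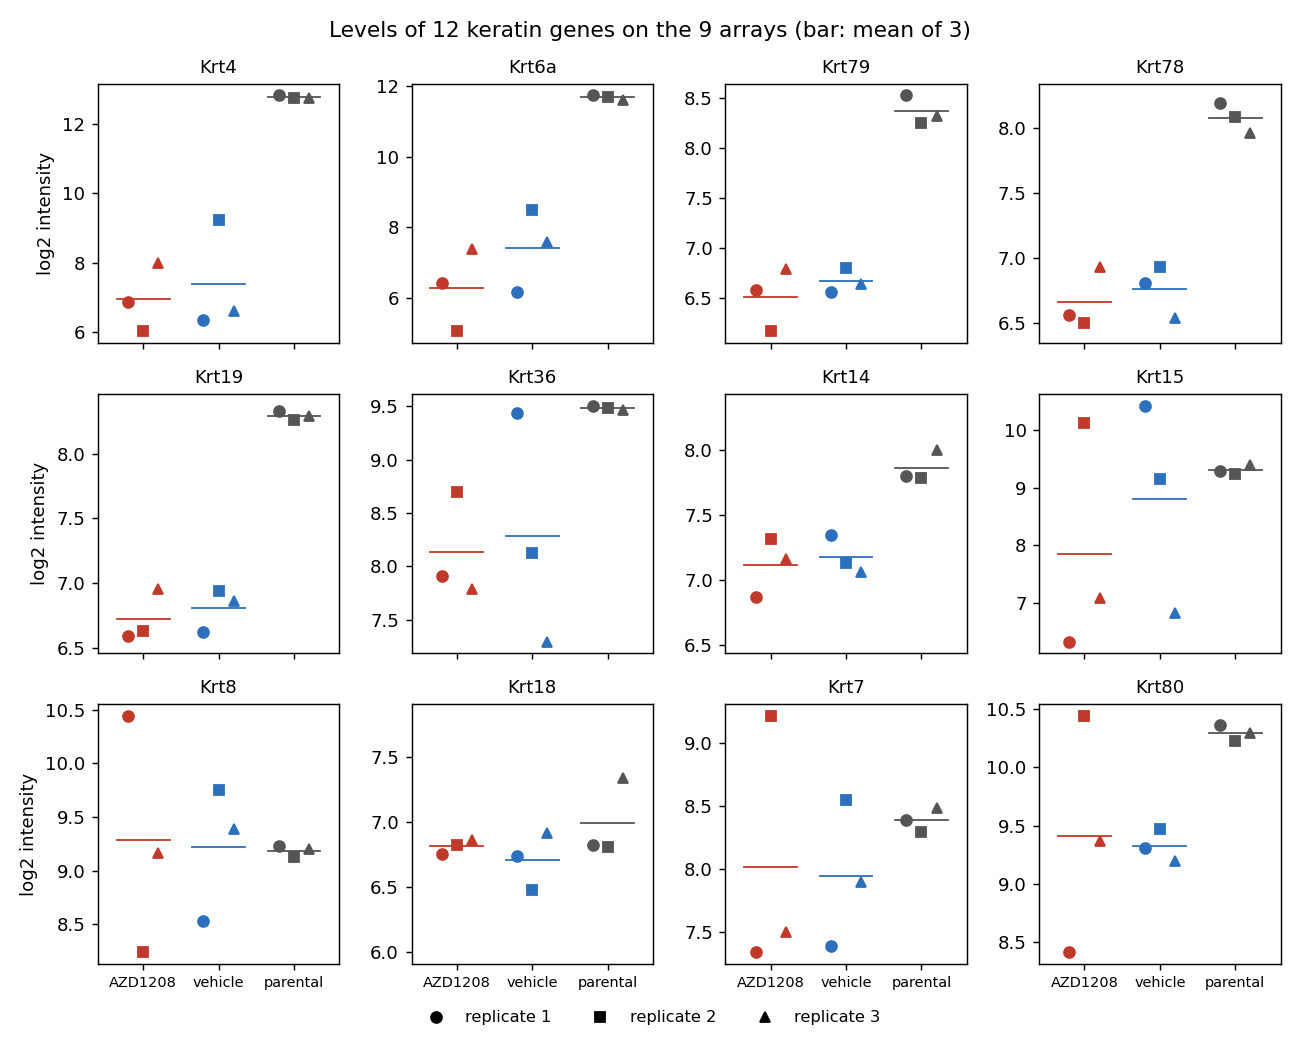
Log2 intensity (y axis) of 12 keratin genes in AZD1208 lines, vehicle lines and on the 3 technical arrays of the parental line (x axis); each point is an array, its shape gives the replicate number, and bars are means of 3. Krt4, Krt6a, Krt79, Krt78, Krt19 and Krt14 have all 6 recurrent lines below the parental arrays, while Krt15, Krt8, Krt7 and Krt80 have lines on both sides of the parental mean.

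With any size of difference, 11 of 53 keratins had all 6 lines below all parental arrays, as did 3.86% of all genes, and 0 had all 6 above, as did 5.1% of all genes. The 4 below by less than 1 were Krt14 (-0.72), Krt13 (-0.63), Krt32 (-0.45) and Krt75 (-0.15). The median difference over all 53 keratins was -0.16, and -0.02 over all 22180 genes. It was -0.32 for the simple epithelial, -0.85 for the 2 basal, -0.28 for the stratified and -0.12 for the hair and inner root sheath keratins. By line, the median over the keratins ran from -0.30 (vehicle line 2) to 0.02 (AZD1208 line 3), and that over all genes from -0.05 to 0.04. These medians describe the contrast that chose the family, so nothing is read from them.

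Among simple epithelial keratins, Krt19 and Krt23 were lower in all 6 lines and the partners Krt8 and Krt18 were not. Krt18 lay not far above the array medians (6.22 to 6.36), where a fall can be understated. Krt8 was at 10.44, 8.24 and 9.17 in AZD1208 lines 1, 2 and 3, at 8.53, 9.75 and 9.38 in vehicle lines 1, 2 and 3, and at 9.23, 9.13 and 9.20 on the 3 parental arrays. Its mean difference was 0.07, with AZD1208 line 1 highest and AZD1208 line 2 lowest of the 9 arrays, and 3 lines above and 2 below all parental arrays. Krt18 was at 6.75, 6.83 and 6.86 in AZD1208 lines 1, 2 and 3, at 6.74, 6.47 and 6.91 in vehicle lines 1, 2 and 3, and at 6.83, 6.81 and 7.34 on the 3 parental arrays, a difference of -0.23 with a technical SD of 0.30, and its second probe set differed by -0.25. Krt7, a type II keratin of ducts, was at 7.34, 9.22 and 7.501 in AZD1208 lines 1, 2 and 3, at 7.39, 8.55 and 7.89 in vehicle lines 1, 2 and 3, and at 8.39, 8.29 and 8.49 on the 3 parental arrays. Its 2 highest recurrent lines, AZD1208 line 2 and vehicle line 2, lay above all parental arrays and the other 4 below. Krt20, of gut and urothelium, differed by -0.13 and was also below the filter on low values.

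Among basal keratins, Krt14 was at 6.87, 7.31 and 7.16 in AZD1208 lines 1, 2 and 3, at 7.34, 7.13 and 7.06 in vehicle lines 1, 2 and 3, and at 7.80, 7.78 and 8.002 on the 3 parental arrays, lower in every line by a similar amount (1.64-fold on average). Krt15, which marks basal cells and hair follicle progenitors, was at 6.34, 10.12 and 7.08 in AZD1208 lines 1, 2 and 3, at 10.42, 9.14 and 6.83 in vehicle lines 1, 2 and 3, and at 9.28, 9.25 and 9.39 on the 3 parental arrays. The lines split for Krt15, with vehicle line 1 and AZD1208 line 2 above all parental arrays, vehicle line 2 just below them and the other 3 far below. Its SD over the 6 lines was 1.79, with a range of 4.08, and 0.0766% of all genes had a larger SD. Without vehicle line 1 its mean difference was -1.40, against -0.98 with all lines.

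For Krt36 too, vehicle line 1 and AZD1208 line 2 were the highest of the recurrent lines, and vehicle line 3 was the lowest. Krt8 ran the other way at its lower end, since the same pair of lines, AZD1208 line 2 and vehicle line 1, were its lowest. Among lists of other cell types, the mean log2 level of 14 fibroblast markers was 7.70 in AZD1208 line 2 and 7.31 in vehicle line 1, against 7.02 to 7.17 in the other recurrent lines and 6.71 to 6.74 on the parental arrays. Different members of the list stood out in AZD1208 line 2 and vehicle line 1. In AZD1208 line 2 Postn (12.72), Pdgfrb (9.78), Dcn (6.68) and Col5a1 (9.14) were the highest of the 9 arrays. In vehicle line 1 Pdgfra (10.03) and Fbln2 (9.36) were. As differences from the parental line, Postn (4.16), Pdgfra (1.68) and Fbln2 (1.17) were above all parental arrays in all 6 lines. These are 3 of 14 beside 5.1% of all genes, and 0 of 14 were below in all 6, beside 3.86% of all genes. The median difference of the list was -0.01, with the collagen genes Col1a1 (-0.08), Col1a2 (-0.18) and Col3a1 (-0.09) near 0. Postn was higher in vehicle line 2 (10.53) than in vehicle line 1 (9.30), so it did not follow the order of Krt15. Endothelial markers averaged 5.95 to 6.21 in recurrent lines and 6.08 to 6.16 on parental arrays, and leukocyte markers 5.81 to 6.14 in recurrent lines and 5.82 to 5.89 on parental arrays. Within the leukocyte list Lyz2, a lysozyme of myeloid cells, was at 5.18, 6.42 and 4.74 in AZD1208 lines 1, 2 and 3, at 7.10, 6.97 and 4.80 in vehicle lines 1, 2 and 3, and at 5.36, 4.96 and 5.23 on the parental arrays. It was high in the 3 lines in which Krt15 was highest. Ptprc, the CD45 gene of all leukocytes, lay between 4.49 and 5.12 in recurrent lines and at 4.85 on each parental array. Cd68 was above the parental arrays in all 6 lines (0.40), 1 of 10 measured members beside 5.1% of all genes, and 0 were below. It was highest in AZD1208 line 2 (8.08) and vehicle line 1 (7.57). Adgre1 was at 5.38, 5.72 and 5.80 in AZD1208 lines 1, 2 and 3 and at 6.22, 6.54 and 5.81 in vehicle lines 1, 2 and 3. It averaged 5.61 in parental cells. AZD1208 line 3 and vehicle line 3, both low in Krt15, lay above AZD1208 line 2, so Adgre1 did not follow the split of Krt15. The median difference of the leukocyte list was 0.04. The part of these genes or of other cells in the keratin values was not tested.

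Of the 17 stratified keratins, 4 (Krt4, Krt6a, Krt79 and Krt78) were lower by at least 1 and Krt13 was lower in all lines by less. Krt13, the type I partner of Krt4, was at 6.25, 6.10 and 6.76 in AZD1208 lines 1, 2 and 3, at 6.51, 6.52 and 6.57 in vehicle lines 1, 2 and 3, and at 7.002, 6.95 and 7.28 on the 3 parental arrays. The recurrent lines lay 1.54-fold lower on average. Krt13 started at 7.08 in parental cells, against 12.79 for Krt4, so the sizes of their falls cannot be compared. Krt80, a type II keratin of differentiating epithelia, was at 8.42, 10.44 and 9.36 in AZD1208 lines 1, 2 and 3, at 9.31, 9.47 and 9.20 in vehicle lines 1, 2 and 3, and at 10.37, 10.22 and 10.30 on the 3 parental arrays. AZD1208 line 2 was above all parental arrays and the other 5 lines below them, so the fall was not shared by every line. Krt76, a type II keratin of the palate, was at 5.41, 5.59 and 5.88 in AZD1208 lines 1, 2 and 3, at 5.80, 6.32 and 5.70 in vehicle lines 1, 2 and 3, and at 6.22, 6.33 and 6.58 on the 3 parental arrays, with vehicle line 2 inside the range of the parental arrays. Krt6b, a close copy of Krt6a, differed by -0.40 with a technical SD of 0.36, and whether its probe set also reads Krt6a was not tested. The other tested ones differed by less: Krt10, a keratin of the upper epidermal layers, by -0.28, Krt9 by -0.24, Krt12 by -0.08, Krt77 by -0.07 and Krt2 by -0.03.

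Of the 26 hair and inner root sheath keratins, 16 stayed within 0.5 of the parental mean in all 6 lines, against 7 of the 17 stratified ones and 1 of the 6 simple ones. Apart from Krt36 the levels of the hair and inner root sheath keratins lay between 4.81 and 7.82, and their mean differences between -0.45 (Krt32) and 0.46 (Krt31). Dim genes understate differences, and the count within 0.5 was not made over all genes. Nothing is therefore read from the contrast between the classes. Krt31, a hair cortex keratin, was at 5.56, 7.22 and 6.12 in AZD1208 lines 1, 2 and 3, at 6.18, 5.66 and 5.91 in vehicle lines 1, 2 and 3, and at 5.95, 5.75 and 5.26 on the 3 parental arrays. AZD1208 line 2 alone stood more than 1 above the parental arrays. AZD1208 line 3, with its narrow interquartile range, was the highest of 9 for 13 of these 26 keratins. It was so for 23.6% of all genes and for 28.9% of the genes below the filter on low values. Of the 26 keratins 20 passed that filter and 6 did not, so neither share is matched to their levels. The part of the narrow range in the hair keratin values of AZD1208 line 3 was not tested.

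**Figure D2:**
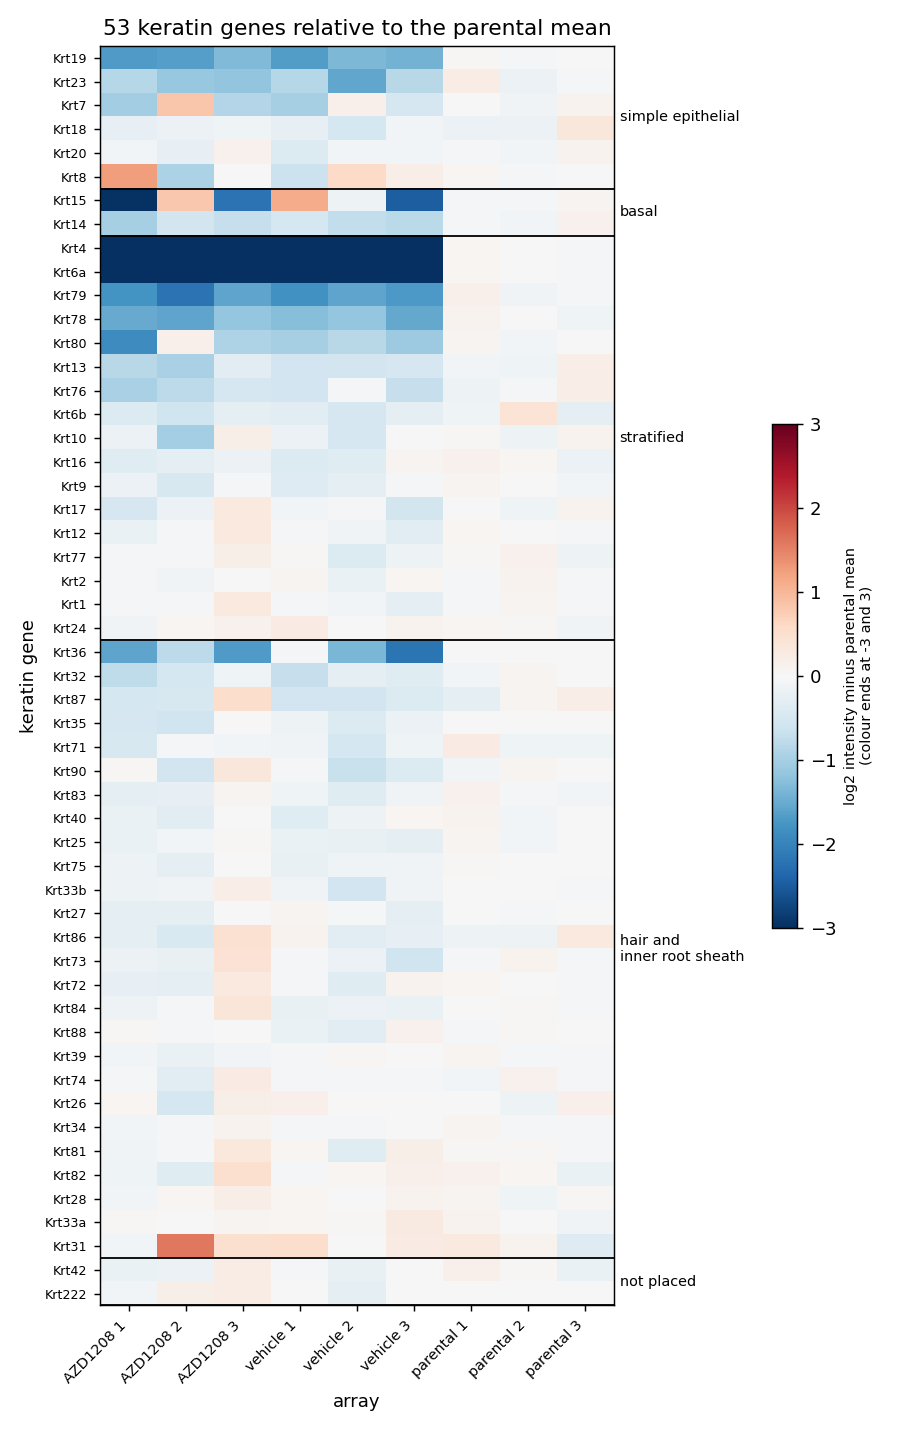
Log2 intensity minus the mean of the parental arrays for 53 keratin genes (rows, grouped by class and ordered by mean difference within it) on the 9 arrays (columns); blue is lower and red higher, and the colour ends at -3 and 3. Krt4 and Krt6a are at the end of the scale in all 6 recurrent lines, Krt15 is low in AZD1208 lines 1 and 3 and vehicle line 3, and most hair and inner root sheath keratins stay near 0.

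Counted line by line, between 6 and 9 keratins were at least 1 below the parental mean and under all its arrays. AZD1208 line 1 had 9 (0.924% of all genes), AZD1208 line 2 had 7 (1.53%) and AZD1208 line 3 had 8 (0.969%). Vehicle line 1 had 6 (2.04%), vehicle line 2 had 7 (0.203%) and vehicle line 3 had 8 (0.234%). Krt4, Krt6a, Krt79, Krt19 and Krt78 were in the count of every line. Since the contrast chose the family, nothing is read from how alike these counts are. In the AZD1208 group 7 keratins were at least 1 lower with all 3 lines below the parental arrays (0.446% of all genes). In the vehicle group 7 were (0.212% of all genes), and the same 7 genes met the rule in both. Neither group had a keratin higher by that rule (1.07% of all genes in AZD1208 and 1.03% in vehicle lines). Both contrasts share the parental sample.

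Side by side, the difference from the parental line was -5.84 in AZD1208 and -5.40 in vehicle lines for Krt4, and -5.38 and -4.27 for Krt6a. For Krt79 it was -1.86 in AZD1208 and -1.70 in vehicle lines, for Krt19 -1.56 and -1.48, and for Krt78 -1.42 and -1.32. The widest gap between the groups among these 5 was that of Krt6a, and the lines overlapped for each of the 5.

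In their place in the genome, taken as the order of genes in RefSeq, several of the lower keratins were neighbours. In the type II cluster Krt76, Krt4, Krt79, Krt78 and Krt8 follow each other among the keratin genes, and the first 4 differed by -0.60, -5.62, -1.78 and -1.37 while Krt8 differed by 0.07. Krt77, on the other side of Krt76, differed by -0.07. Beside Krt6a, Krt6b on its left differed by -0.40 and Krt71, the next measured gene on its right after Krt5, by -0.23. Krt6b and Krt71 were dim in parental cells (6.54 and 5.56), where a fall can be understated. Since Krt5 was not analysed, whether Krt6a fell alone cannot be told. In the type I cluster Krt36, Krt13, Krt15 and Krt19 follow each other, with -1.28, -0.63, -0.98 and -1.52, followed by Krt9 (-0.24) and Krt14 (-0.72). Krt23 lay apart, between Krt20 (-0.13) and Krt39 (-0.06). These stretches were picked out after the values were seen.

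**Figure D3:**
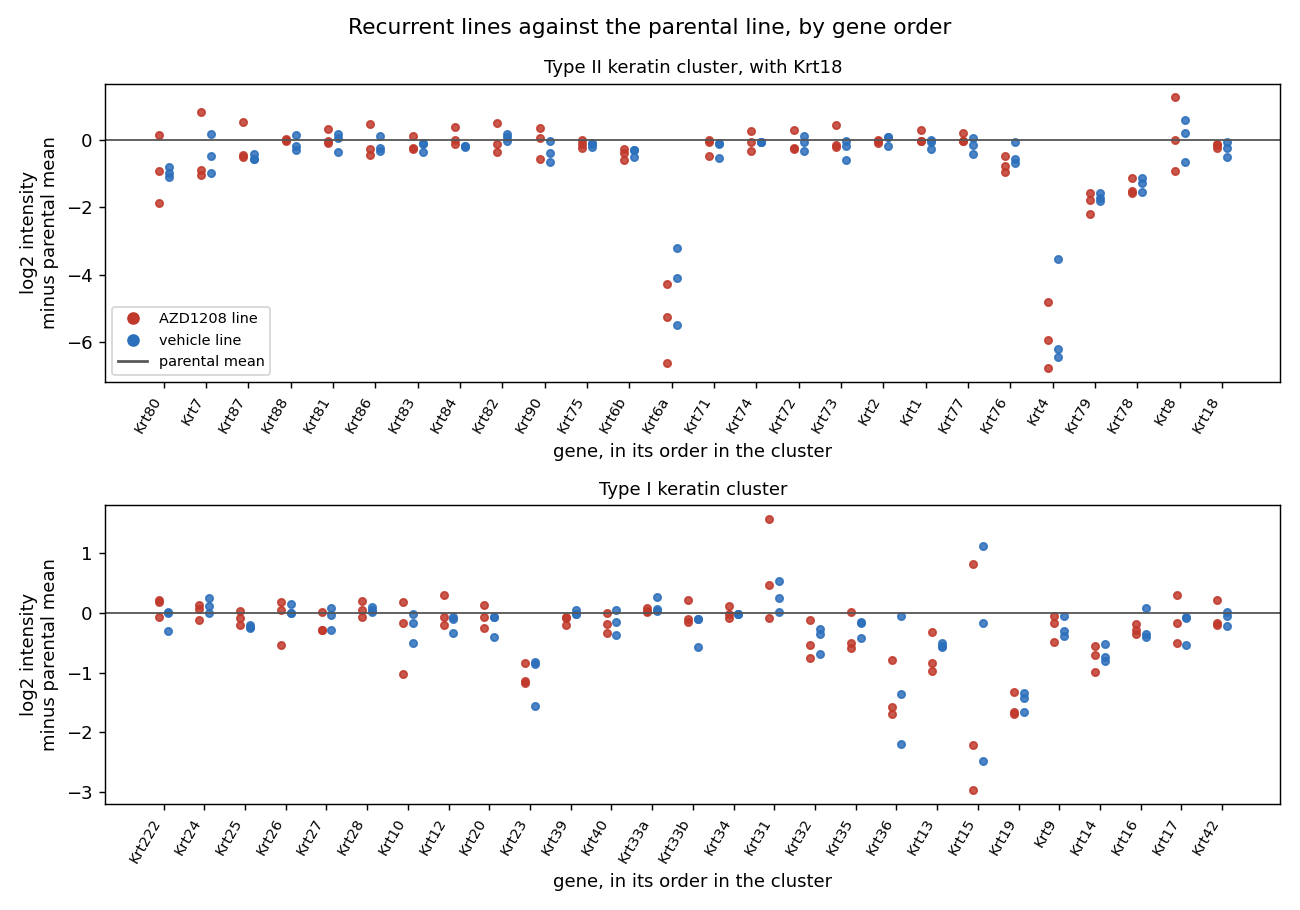
Log2 intensity minus the parental mean (y axis) of each AZD1208 line and each vehicle line for the measured keratins, placed by their order in the type II and type I clusters (x axis, not to distance; Krt5, between Krt6a and Krt71, is not measured here). In the upper panel the values of Krt76, Krt4, Krt79 and Krt78 lie below 0, next to Krt8 around 0, and Krt6a is low between Krt6b and Krt71.

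AZD1208 lines were set against vehicle lines to ask whether treatment with the PIM inhibitor went with a different keratin pattern. The choice of the family used no value of this comparison, although its results were known. Of 53 keratins 40 passed the filter on low values and were tested, and 0 of them passed in either direction (limma, each with adjusted p = 1), as did 0% of the 15526 genes tested. With an unadjusted p under 0.05 there were 0 keratins and 81 genes in all.

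Krt6a had the smallest p of the keratins. It averaged 6.299 ± 1.17 in AZD1208 lines and 7.41 ± 1.16 in vehicle lines (SD, n = 3 each), a log2 difference of -1.12 with a 95% interval of -2.78 to 0.55 (limma, adjusted p = 1; exact permutation p = 0.4, two-sided). Krt4 averaged 6.95 ± 0.99 in AZD1208 lines and 7.39 ± 1.61 in vehicle lines (SD, n = 3 each), with a difference of -0.44 (95% interval -2.34 to 1.47). For Krt15 the averages were 7.85 ± 2.00 in AZD1208 lines and 8.80 ± 1.82 in vehicle lines (SD, n = 3 each), with a difference of -0.95 (95% interval -3.66 to 1.77). The intervals of these 3 genes are wide, since the lines of a group differed from each other by more than the groups did. With single lines left out, the difference of Krt6a ran from -1.73 (without vehicle line 1) to -0.50 (without AZD1208 line 2). That of Krt15 ran from -2.09 (without AZD1208 line 2) to -0.14 (without vehicle line 1), and that of Krt4 from -0.96 (without vehicle line 1) to 0.49 (without vehicle line 2).

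The intervals were narrower for the keratins that were even across lines. Krt19 differed by -0.08 between AZD1208 and vehicle lines (95% interval -0.48 to 0.32), Krt78 by -0.10 (-0.53 to 0.34), Krt79 by -0.16 (-0.61 to 0.30), Krt14 by -0.06 (-0.47 to 0.34) and Krt18 by 0.10 (-0.28 to 0.48). Krt8 differed by 0.06 (-1.24 to 1.36), Krt7 by 0.08 (-1.15 to 1.30), Krt80 by 0.08 (-0.98 to 1.14) and Krt36 by -0.15 (-1.38 to 1.07). After Krt6a the smallest p-values were those of Krt84 (0.26), Krt76 (-0.31), Krt33b (0.24), Krt73 (0.29) and Krt77 (0.20), as log2 differences. Over all 53 keratins the median difference was 0.01, with 30 higher and 23 lower in AZD1208 lines, and the median over all genes was -0.01.

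AZD1208 and vehicle lines did not overlap for 2 keratins, both of the hair and inner root sheath class. Krt84 was at 6.23, 6.35 and 6.74 in AZD1208 lines and at 6.15, 6.20 and 6.18 in vehicle lines. Krt39 was at 6.19, 6.07 and 6.20 in AZD1208 lines and at 6.25, 6.32 and 6.26 in vehicle lines. These are 1 keratin with AZD1208 lines higher (1.92% of all genes) and 1 with AZD1208 lines lower (2.29% of all genes), close to the shares over all genes. For each the exact permutation p was 0.1, two-sided, the smallest that 3 against 3 lines allow.

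**Figure D4:**
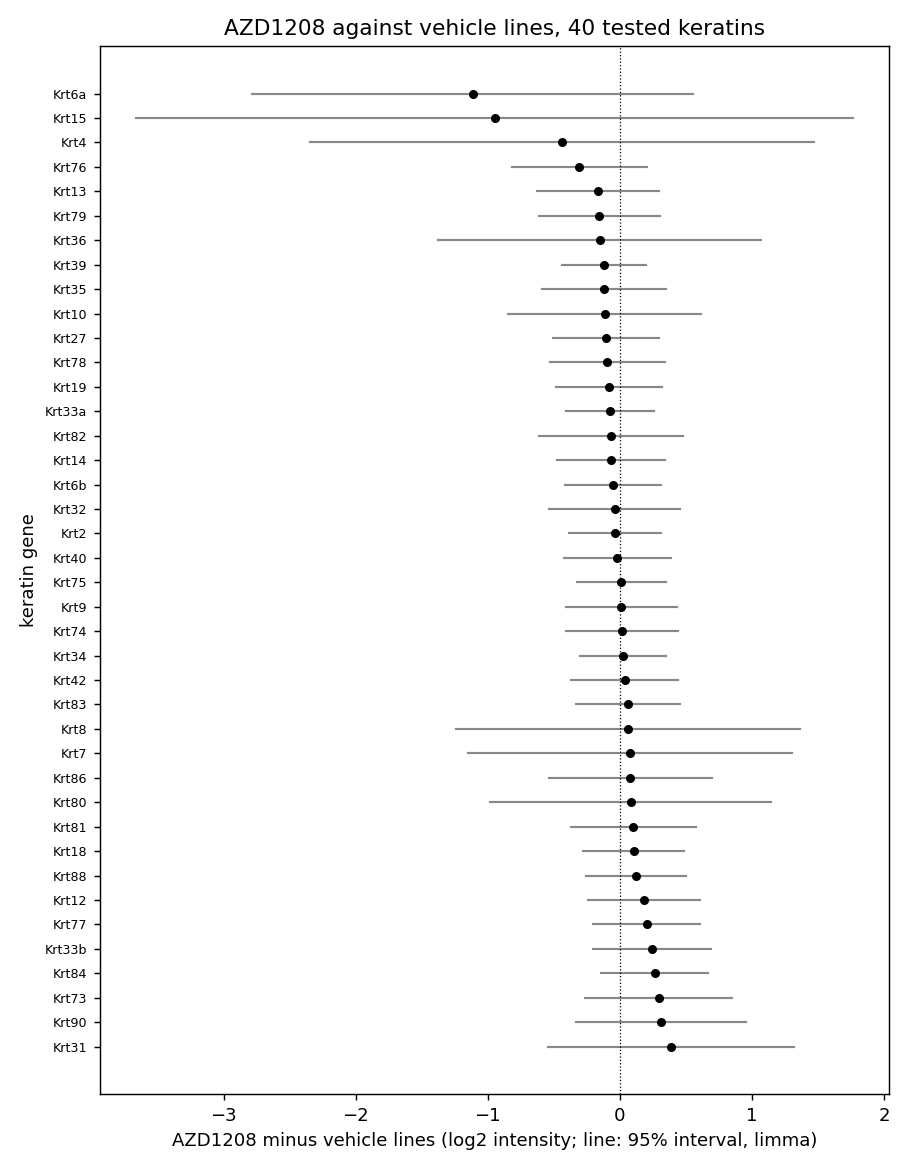
Difference of AZD1208 minus vehicle lines in log2 intensity (x axis) for the 40 tested keratins (y axis), with points for the difference and lines for the 95% interval of the limma fit. All 40 intervals include 0, and those of Krt15, Krt4, Krt6a, Krt8, Krt7 and Krt36 are the widest.

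Genes that work with keratins were read from lists. Of 21 measured genes for desmosomes and keratin linkers, 0 of the 15 tested passed between AZD1208 and vehicle lines. Against the parental line 1 had all 6 lines below its arrays (Evpl, envoplakin, -0.33) and 0 had all above, beside 3.86% and 5.1% of all genes, with a median difference of -0.06. Jup, the desmosomal plakoglobin, averaged 10.05 in the recurrent lines against 9.98 in parental cells. Of 30 genes of the cornified envelope and squamous epithelium, 0 of 20 tested passed between the treatment groups. Sprr2d (-0.25) and Sprr4 (-0.24) were below and Tgm5, a transglutaminase, was above (0.999) the parental arrays in all 6 lines, 2 and 1 of 30 beside the same shares of all genes, with a median of -0.07. Differences ran from -0.34 to 0.75 among desmosome and linker genes and from -0.44 to 1.001 among squamous genes.

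Of 21 epithelial transcription factors, 0 of 18 tested passed between AZD1208 and vehicle lines. Notch1 (0.75) and Trp63, the p63 gene of basal cells (0.43), were above the parental arrays in all 6 lines (2 of 21, beside 5.1% of all genes), and the median of the list was 0.00. Trp63 was at 7.51 in vehicle line 1 and between 6.50 and 6.69 in the other recurrent lines, against 6.16 to 6.41 on the parental arrays. Its mean difference thus rested largely on vehicle line 1, and the other values lay near the array medians. Of 15 other intermediate filament genes, 0 of 13 tested passed. Vim, the vimentin of mesenchymal cells, was above the parental arrays in all 6 lines (13.70 ± 0.11, SD, n = 6 lines, against 13.27) and Lmna, a nuclear lamin, below them (-0.36), 1 of 15 in each direction beside 5.1% of all genes above and 3.86% below. Of 12 measured genes of prostate epithelial identity, 0 of 9 tested passed, and Esrp2, an epithelial splicing factor, was below in all 6 lines (-0.49), 1 of 12 beside 3.86% of all genes.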

How the data were processed

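The authors deposited log2 intensities, 1 per probe set and array, for 41345 probe sets. Processing used oligo, per the submitters' processing notes. Its version, the background correction, the normalization, the summary method and the genome build were not given in the sources used here. No scale was changed for the main results. There are no detection calls, dim genes understate differences, and precision is limited by how many arrays there are.

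Probe sets with 1 symbol (23521) were used, those with several (1814) or not listed (16010) were not. Of several probe sets of a gene the one of highest mean was taken (22180 genes). All 53 keratin Entrez identifiers had the same symbol in RefSeq (GRCm38.p6). The 3 parental arrays were averaged to 1 sample. For AZD1208 against vehicle lines, genes with the 30% lowest means (below 5.81) were left out, which left 15526, and 7 samples were fitted with limma 3.58.1 in R 4.3.3 (lmFit, eBayes, 4 residual and 3.36 prior degrees of freedom), with Benjamini-Hochberg adjustment over all genes tested and a threshold of 0.05. Counts against the parental line used no filter and no test.

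The genes, classes and lists were chosen with earlier results of these data known. Named were 9 keratins always, the tested simple, basal and stratified ones, the 6 largest falls and rises in all lines (0 rises existed), the 6 smallest p-values for AZD1208 against vehicle, and up to 4 members of each list. Krt20, Krt23, Krt31, Krt32, Krt39, Krt71, Krt75, Jup, Col1a1, Col1a2, Col3a1, Col5a1, Pdgfrb, Dcn, Lyz2, Ptprc, Adgre1, Foxa1, Hoxb13, Epcam and Pbsn were named after their values were seen.

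Whether a replicate number links a line of each treatment is stated by no label. Departures of the lines from their group's mean correlated at 0.146, 0.118 and 0.532 for lines of the same number (and at 0.264 for AZD1208 line 2 with vehicle line 1). All 3 pairs exceeded 0.1, the level taken for a pairing, so the replicate block was fitted as an alternative. The fit and the counts were tested on simulated data with known answers. Alternatives were other normalizations, filters, probe set rules, weights and left-out lines.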

Additional observations from a re-analysis of the deposited data

Results flagged for a closer look

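In all, 6 hair and inner root sheath keratins had a line that stood apart from the other 5 recurrent lines, by a gap between it and its nearest neighbour that was large against the whole range. They were Krt87 in AZD1208 line 3 (6.42, next line 5.49), Krt84 in AZD1208 line 3 (6.74, next 6.35) and Krt34 in AZD1208 line 3 (7.36, next 7.23). The others were Krt31 in AZD1208 line 2 (7.22, next 6.18), Krt26 in AZD1208 line 2 (5.11, next 5.64) and Krt33a in vehicle line 3 (6.52, next 6.34). Chance flags about 1 in 20 such groups, and 53 keratins were looked at. AZD1208 line 3, which holds 3 of the 6, also had the narrowest interquartile range of the 9 arrays.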

How the results depend on the processing

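Under every alternative run, 0 genes and 0 keratins passed between AZD1208 and vehicle lines (limma), including 0 with the replicate block, which changed no call. The 7 keratins lower than parental by at least 1 became 2 with a difference of at least 2, in the recurrent lines and in each group, and 11 in vehicle lines with at least 0.5. With single arrays left out they numbered 6 to 8 in the recurrent lines, 6 to 9 in AZD1208 lines and 6 to 8 in vehicle lines. Keratins higher in AZD1208 lines then numbered 0 to 1 (Krt31, without AZD1208 line 1). Several small AZD1208 minus vehicle differences, none of them called, changed sign. With single lines left out they ranged from -0.96 to 0.49 for Krt4, -0.30 to 0.016 for Krt79, -0.16 to 0.059 for Krt14, -0.52 to 0.58 for Krt8 and -0.014 to 0.21 for Krt18. They ranged from -0.37 to 0.23 for Krt10, -0.13 to 0.013 for Krt2, -0.13 to 0.033 for Krt6b, -0.52 to 0.42 for Krt7, -0.43 to 0.58 for Krt80, -0.083 to 0.14 for Krt9 and -0.65 to 0.42 for Krt36. Without a change of sign, Krt15 ranged from -2.09 to -0.14 and Krt6a from -1.73 to -0.50. Krt9 also turned with quantile normalization (-0.015) and with centred arrays (-0.039), and with array quality weights Krt7 was at -0.46 and Krt80 at -0.53. The cause was not tested. Against parental, Krt4 ranged from -6.03 to -5.39 over 12 alternatives, and Krt15 from -1.40 (without vehicle line 1) to -0.59. For dim keratins the missing detection calls limit what can be read.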

Other observations

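A few squamous and epithelial genes outside the keratin family set single lines apart. Sprr1a, a small proline-rich protein of the cornified envelope, was at 6.84, 10.51 and 6.87 in AZD1208 lines 1, 2 and 3, at 6.66, 7.47 and 6.79 in vehicle lines, and at 6.52 on average in the parental line. The high line is AZD1208 line 2, which was also the highest line for Krt7, Krt80 and Krt31. These were the only 3 keratins for which this line was the highest of the 9 arrays, beside 14.2% of all genes. It was the lowest of the 9 arrays for 17 keratins, Krt4, Krt6a and Krt8 among them. Zfp750, a regulator of epidermal differentiation, was at 9.72, 7.31 and 7.99 in AZD1208 lines, at 9.90, 8.01 and 9.02 in vehicle lines, and at 7.39 in the parental line. It was highest in vehicle line 1 and AZD1208 line 1, which were opposite in Krt15. Both genes were named after their values were seen.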
